A study of Mus musculus with 9 samples.

Results

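The genes Draxin, Zfp811, Slc13a3, Igsf9, Gpr31b and Tmem119 have little described role in dendritic cells and were followed through RNA sequencing of bone marrow-derived dendritic cells (BMDCs). They were picked by name, as genes far higher in BMDCs given tumor-derived exosomes than in either control, so those differences are described below and not tested. They make up 6 of the 57238 entries of the count table, and all 6 passed the filter on low counts that left 15028 tested genes. BMDCs were grown from bone marrow of wildtype C57BL/6 mice, aged 8 to 10 weeks in the study's methods, with 20 ng/ml GM-CSF, a growth factor for myeloid cells. The labels give 6 days of culture and the methods 7 days. There were 3 libraries in each of 3 groups: CTR BMDCs without exosomes, NE-treated BMDCs given exosomes of NIH-3T3, a mouse fibroblast line, for 24 h, and TDE-treated BMDCs given exosomes of tumor cells for 24 h. The labels do not name the tumor line and do not say whether libraries came from separate mice or cultures, so the spread between libraries may be technical.

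Exosomes are small membrane vesicles that cells release and that carry protein, lipid and RNA to other cells. The 6 genes belong to unrelated pathways and most are known from outside the immune system. Draxin encodes a secreted protein that binds netrin receptors such as DCC and repels growing axons. Igsf9 encodes an immunoglobulin-superfamily adhesion protein of neurons. Slc13a3 encodes a sodium-coupled carrier that brings dicarboxylates such as succinate and alpha-ketoglutarate into cells, best known from the kidney. Gpr31b is a mouse counterpart of GPR31, a G protein-coupled receptor for the lipoxygenase product 12-HETE. Zfp811 encodes a zinc finger protein, and Tmem119 encodes a membrane protein used as a marker of microglia, the resident macrophages of the brain, and known in bone-forming osteoblasts.

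The sequence just upstream of the annotated start is shown for Draxin, Zfp811 and Slc13a3, the 3 genes that were nearly without reads in both control groups. The windows come from RefSeq promoters on GRCm38.p6, which matched 5 of the 6 genes and not Tmem119, and exon bases were left out. Each is written 5′ to 3′ on the minus strand, from which these genes are transcribed, and capitals mark matches to the GC box GGGCGG and the hypoxia-factor motif ACGTG on either strand.
Draxin, chr4:148130699-148130914: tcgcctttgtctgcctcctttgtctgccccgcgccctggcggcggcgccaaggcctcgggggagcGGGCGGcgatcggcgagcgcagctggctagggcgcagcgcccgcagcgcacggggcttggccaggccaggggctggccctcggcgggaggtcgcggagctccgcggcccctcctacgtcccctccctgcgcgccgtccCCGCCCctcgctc
Zfp811, chr17:32809932-32810143: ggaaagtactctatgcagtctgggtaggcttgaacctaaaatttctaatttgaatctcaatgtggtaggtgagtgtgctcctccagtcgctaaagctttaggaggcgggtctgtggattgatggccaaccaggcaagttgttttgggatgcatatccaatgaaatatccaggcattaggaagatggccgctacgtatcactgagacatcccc
Slc13a3, chr2:165473231-165473447: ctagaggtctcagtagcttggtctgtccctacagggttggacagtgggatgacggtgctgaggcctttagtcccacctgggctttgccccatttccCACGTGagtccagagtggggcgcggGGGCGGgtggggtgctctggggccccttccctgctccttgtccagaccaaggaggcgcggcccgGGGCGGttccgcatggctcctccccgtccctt
GC boxes stood in the full 250-base windows of Draxin, Slc13a3 and Igsf9, against 32.9% of 27025 RefSeq promoters, and ACGTG stood in those of Slc13a3 and Igsf9, against 16.6%. The Igsf9 window, chr1:172481963-172482212, lies inside the gene as annotated in GENCODE vM21, where it begins at 172481788. For 4 of the 5 windows the next 50 bases lay in an annotated transcript of the gene. In Slc13a3 and Igsf9 the ACGTG matches on opposite strands overlapped by 4 bases in CACGTG. None of the 5 windows held AP-1 TGANTCA (6.87% of promoters), CRE TGACGTCA (1.62%), C/EBP TTGCNNAA (9.55%), kappaB GGGANNTTC (3.17%), STAT TTCNNNGAA (7.18%), IRF GAAANNGAA (7.16%) or the box TATAAA (13% of promoters). The Zfp811 window held none of the 9 motifs.

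The libraries held 17469782 to 21092943 estimated reads on genes, so that 3 reads, the limit that a count of 0 allows, corresponded to 0.142 to 0.172 CPM (reads scaled to the size of the library), counting error only. CTR replicate 1 stood apart, with correlations of log2 CPM across genes of 0.827 to 0.9 with the other libraries, whereas the other 8 libraries correlated with each other at 0.941 or more. Marker lists of dendritic cells and of other cell types that such cultures can hold differed between groups. The summed neutrophil markers lay at 7190 to 28200 CPM in CTR, 7580 to 10800 CPM in NE-treated and 3290 to 3590 CPM in TDE-treated BMDCs (0 of 10 tested markers rose and 7 fell between TDE-treated and CTR BMDCs). The dendritic cell markers lay at 5200 to 15000, 4970 to 6170 and 3010 to 3200 CPM (0 of 15 rose, 6 fell), and the macrophage markers at 3840 to 4560, 4200 to 4720 and 5710 to 6130 CPM (1 of 9 rose, 2 fell). Eosinophil markers fell in 7 of 7 and mast cell and basophil markers in 5 of 6 tested genes. The part of these shifts in the results below was not tested, and in bulk RNA fewer cells of a type and less RNA per cell cannot be told apart. Markers of neurons and of kidney tubule, where some of the 6 genes are best known, were near the floor: 7 of 8 neuron markers had at most 3 reads in every library, with Snap25 at 0, and 6 of 6 kidney proximal tubule markers had at most 3 reads, with Slc5a2 and Slc22a12 at 0. Fibroblast markers summed to 6.46 to 7.61 CPM in CTR, 6.29 to 7.71 CPM in NE-treated and 10.8 to 11.8 CPM in TDE-treated BMDCs, and 2 of 6 tested rose, the collagen-binding Dcn from 0.339 to 3.34 CPM and the growth factor receptor Pdgfrb from 1.86 to 3.58 CPM. Of the collagen genes in that list, Col1a1 was at 1.89 CPM in CTR and 1.09 CPM in TDE-treated BMDCs, Col1a2 at 1.18 and 0.665 CPM and Col3a1 at 0.736 and 0.979 CPM, and none passed the test. Epithelial markers summed to 8.43 to 9.82, 11 to 13.2 and 4.48 to 7.63 CPM in the 3 groups, and melanocyte markers to 0.656 to 3.11, 0.448 to 0.868 and 0.333 to 0.382 CPM, with Cldn4, Mlana and Tyrp1 at 0.

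Draxin (ENSMUSG00000029005, chr4:148098437-148130698, GRCm38, minus strand) was close to absent without tumor exosomes. It had 2, 8 and 3 reads in the 3 CTR libraries, 3, 5 and 2 reads in the NE-treated libraries, and 689, 664 and 739.79 estimated reads in the TDE-treated libraries. After scaling for library size with TMM factors these were 0.213 ± 0.129 CPM in CTR, 0.177 ± 0.0871 CPM in NE-treated and 37.7 ± 1.28 CPM in TDE-treated BMDCs (SD, n = 3 each, as for all values below). The lowest TDE-treated library was 100 times the highest CTR library. Pooled over libraries the ratio of TDE-treated to CTR BMDCs was 168, with an exact 95% interval for counting error of 97.7 to 315, and against NE-treated BMDCs it was 216 (117 to 452). The fitted log2 fold change against CTR, 7.37 ± 0.364 (SE), ranked 3rd from the top of 15028 genes. The value moved to 8.01 when CTR replicate 2, which held 8 of the 13 CTR reads, was left out.

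Zfp811 (ENSMUSG00000055202, chr17:32795676-32809931, minus strand) showed the same low background. Its reads numbered 5, 8 and 3 in CTR, 4, 4 and 3 in NE-treated and 584, 571.38 and 665 in TDE-treated libraries, or 0.276 ± 0.111, 0.193 ± 0.0378 and 32.8 ± 1.82 CPM. The pooled ratio was 118 (72.7 to 207) against CTR and 171 (95.4 to 343) against NE-treated BMDCs. The TDE-treated libraries were far from both controls, which overlapped each other. The log2 fold change against CTR was 6.85 ± 0.276, rank 7.

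Slc13a3 (ENSMUSG00000018459, chr2:165405028-165473230, minus strand) had 16, 9 and 10 reads in CTR, 8, 6 and 9 in NE-treated and 854, 779 and 970 in TDE-treated libraries. Its levels were 0.642 ± 0.326, 0.399 ± 0.0649 and 46.8 ± 4.1 CPM. CTR replicate 1 was the highest control library at 1.01 CPM, and the lowest TDE-treated library was still 41.9 times higher. The pooled ratio was 77.4 (55.5 to 111) against CTR and 117 (77.8 to 185) against NE-treated BMDCs. The log2 fold change against CTR was 6.22 ± 0.319 (rank 12), and 6.66 without CTR replicate 1.

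Gpr31b, Igsf9 and Tmem119 had a measurable level in the controls and were higher in TDE-treated BMDCs. Gpr31b (ENSMUSG00000071311, chr17:13051014-13052296, minus strand) measured 2.79, 3.48 and 2.52 CPM in CTR, 3.24, 3.14 and 2.93 CPM in NE-treated and 61.0, 55.6 and 58.7 CPM in TDE-treated libraries. Its mean was 19.9 times that of CTR and 18.8 times that of NE-treated BMDCs, and its log2 fold change against CTR was 4.31 ± 0.163 (rank 32). Igsf9 (ENSMUSG00000037995, chr1:172481788-172498878, plus strand) measured 6.72, 9.26 and 8.38 CPM in CTR, 6.63, 8.02 and 6.71 CPM in NE-treated and 67.1, 71.6 and 76.3 CPM in TDE-treated libraries. It was 8.83 times the CTR and 10.1 times the NE-treated mean, with a log2 fold change of 3.14 ± 0.166 against CTR (rank 71). The control libraries of both genes overlapped, and no TDE-treated library came near them.

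Tmem119 (ENSMUSG00000054675, chr5:113793729-113800516, minus strand) had the highest CTR level and the smallest difference of the 6 genes. It measured 12.1, 9.75 and 12 CPM in CTR, 6.85, 7.7 and 7.31 CPM in NE-treated and 44.4, 46.7 and 46.7 CPM in TDE-treated libraries. Here the 3 groups did not overlap, with the NE-treated libraries lowest. Its mean in TDE-treated BMDCs was 4.08 times the CTR and 6.31 times the NE-treated mean, and the log2 fold change of 2.03 ± 0.134 against CTR ranked 240. Against this, every TDE-treated library lay above every control library in 18.6% of tested genes, and for the 6 genes the rule itself required it.

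**Figure D1:**
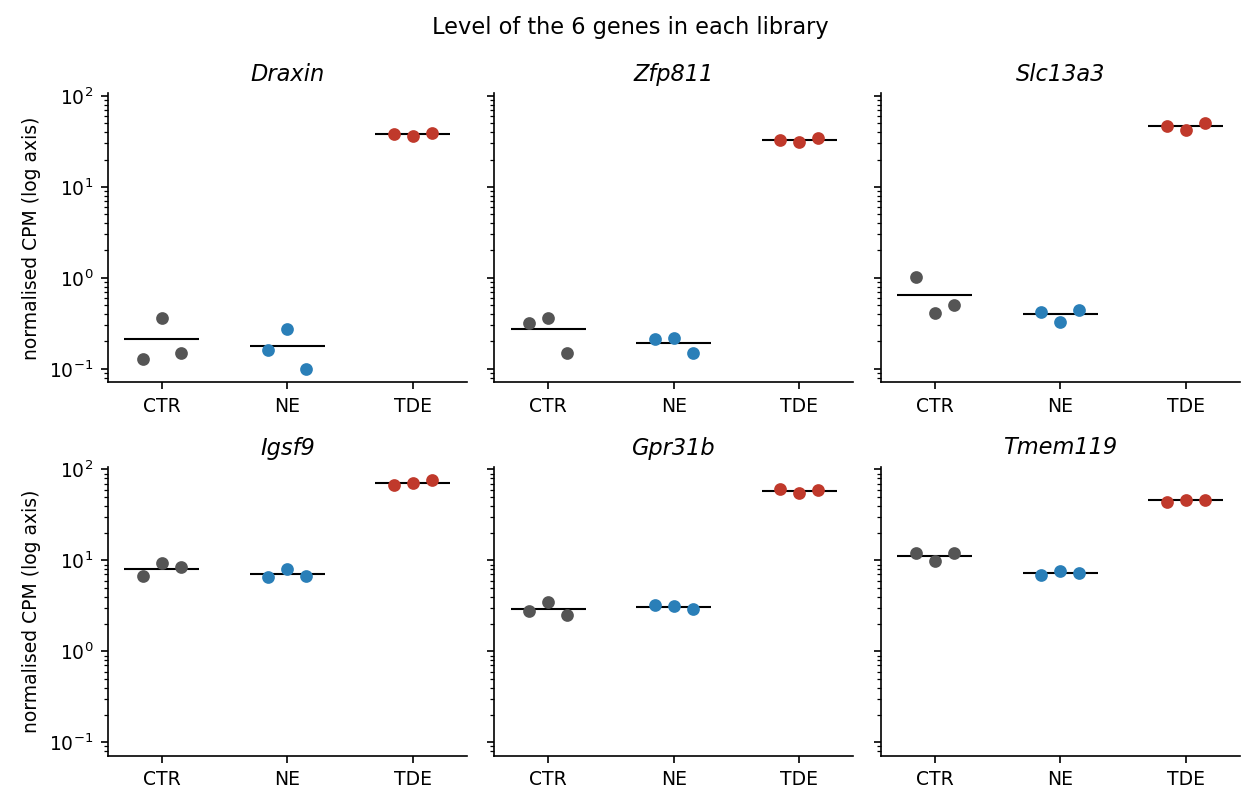
Level of each of the 6 genes in every library, in CPM scaled by TMM factors on a log10 axis, with points for the 3 libraries of each group and a bar for the group mean. Draxin, Zfp811 and Slc13a3 go from about or below 1 CPM in the controls to 31.2 to 50.7 CPM in TDE-treated libraries, and the NE-treated libraries of Tmem119 lie under its CTR libraries.

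Between TDE-treated libraries the 6 genes had a coefficient of variation from 2.82% for Tmem119 to 8.74% for Slc13a3. Between NE-treated libraries it ran from 5.01% for Gpr31b and 5.86% for Tmem119 to 49.3% for Draxin. In CTR, which holds the library that stands apart, it ran from 11.7% for Tmem119 to 60.5% for Draxin, whose CTR values rested on 13 reads. To compare genes, CPM was divided by the gene length in kb that the table gives. In TDE-treated BMDCs the order per kb was Gpr31b at 45.5 ± 2.11, Tmem119 at 20.5 ± 0.578, Igsf9 at 17.3 ± 1.11, Slc13a3 at 13.3 ± 1.16, Zfp811 at 9.26 ± 0.514 and Draxin at 7.25 ± 0.246 CPM per kb, and no neighbours in this order overlapped. The order depends on the length: with the union of annotated exons in GENCODE vM21 in place of the table's length, an alternative chosen after seeing the data, Igsf9 was at 10.8 CPM per kb and Slc13a3 at 8.98, just under Zfp811 at 9.21. In CTR BMDCs the order was led by Tmem119 at 5.03 ± 0.587 CPM per kb, followed by Gpr31b at 2.28 ± 0.384 and Igsf9 at 1.96 ± 0.312, which overlapped. Slc13a3 at 0.182 ± 0.0926, Zfp811 at 0.0782 ± 0.0313 and Draxin at 0.041 ± 0.0248 CPM per kb followed, and the last 2 overlapped. The order in NE-treated BMDCs was that of CTR. By level per kb, Draxin lay above 0.26% of tested genes in CTR and above 53.5% in TDE-treated BMDCs, and Gpr31b went from 31.2% to 88.6%. Entries low in every group had been filtered out before this ranking. The low place of Draxin in CTR, and the rise of both genes, are thus partly fixed by the filter and the choice of genes.

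The comparison of NE-treated with CTR BMDCs asks whether exosomes of a non-tumor line moved these genes. The choice of the genes did not use this difference itself, but a gene that NE exosomes raised toward the TDE-treated level would not have been chosen, so the lack of a large rise is in part fixed by the choice. No difference passed the threshold in any of the 6 by edgeR's quasi-likelihood test with Benjamini-Hochberg adjustment over 15028 genes. Over all genes the called share was 0% in this contrast: 0 genes passed by edgeR, 487 had an unadjusted p under 0.05, and DESeq2 called 3, as did edgeR without CTR replicate 1. The log2 differences, NE-treated minus CTR, were -0.33 ± 0.474 for Draxin, -0.51 ± 0.348 for Zfp811, -0.63 ± 0.353 for Slc13a3, -0.19 ± 0.157 for Igsf9 and 0.08 ± 0.153 for Gpr31b (SE), each less than 2 of its standard errors from 0. Tmem119 differed by more relative to its error, at -0.63 ± 0.132, or 0.646 times the CTR mean. Every NE-treated library of Tmem119 lay below every CTR library, which held for 3.67% of tested genes, and its unadjusted edgeR p was 0.00125. Its adjusted p was 0.659 with edgeR and 0.303 with DESeq2, and it ranged from 0.235 to 0.876 over the alternative settings, so the difference was not called. With few reads in the controls, the depth could not show a moderate difference in Draxin or Zfp811.

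**Figure D2:**
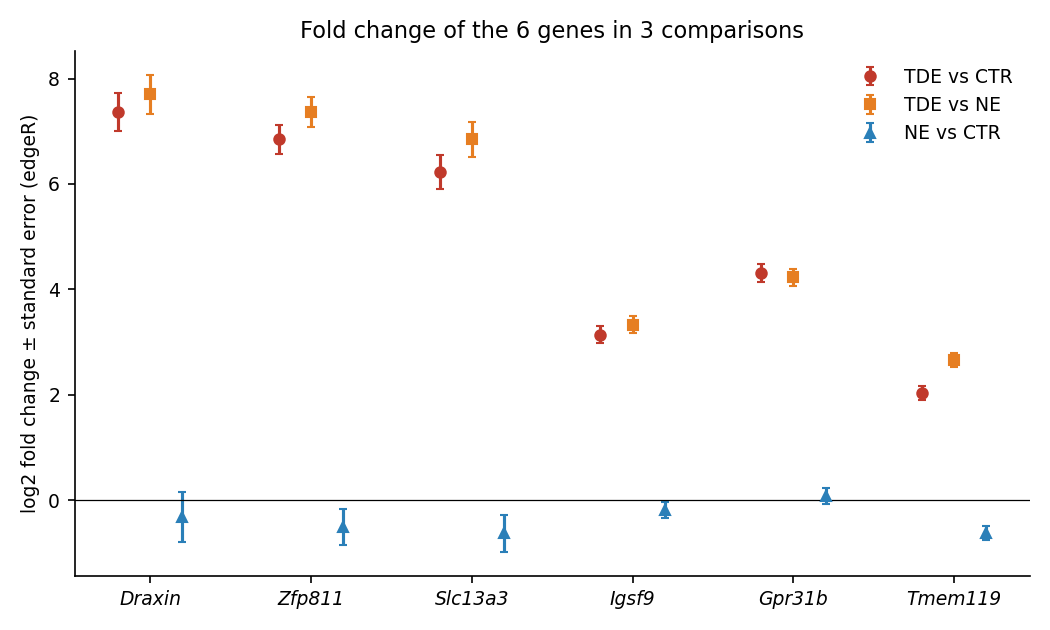
Log2 fold changes of the 6 genes from the edgeR fit with their standard errors, for TDE-treated against CTR, TDE-treated against NE-treated and NE-treated against CTR BMDCs. The first 2 contrasts chose the genes and run from 2.03 to 7.70, and the NE-treated against CTR values run from -0.63 to 0.08.

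Gpr31b shares sequence with other loci, so its reads cannot be assigned with certainty. Of the 1234 words of 50 bases in its exons, 1081 (87.6%) occur elsewhere in the annotated transcripts, mainly in AC166110.3, Gm6553 and Gpr31a, which are annotated as processed pseudogenes on chromosome 17. For the other members the share of such words was at most 0.647%. All 9 Gpr31b counts were fractional, as were those of Igsf9. AC166110.3 went from 1.71, 2.57 and 3.63 CPM in CTR to 18.0, 19.9 and 19.1 CPM in TDE-treated libraries. Gm6553 went from 0, 0.452 and 0.555 CPM to 29.5, 28.3 and 30.3 CPM. Gpr31a had 0, 1 and 0 reads in CTR and 45.35, 42.56 and 69.38 reads in TDE-treated libraries, a pooled ratio of 163 with a counting interval of 28.9 to 6490. They share 860, 641 and 509 of the words of Gpr31b in the order named above, so their reads may belong to Gpr31b. Their values are given here with no test. The sum of the 4 loci is a description of the same kind. It was 5.92 ± 1.23 CPM in CTR, 7.75 ± 1.43 CPM in NE-treated and 110 ± 3.01 CPM in TDE-treated BMDCs, 18.5 times the CTR and 14.1 times the NE-treated mean. Gpr31b held 49.5% of the sum in CTR and 53.3% in TDE-treated BMDCs. Overlapping genes touched the other members only outside exons: Draxin overlaps Mad2l2 on the opposite strand, Slc13a3 the antisense gene Gm14437, and Zfp811 contains 2 small RNA genes, each with 0 shared exon bases.

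The genes around each member were examined to see whether the rise extended along the chromosome. Of 118 genes within 200 kb, 50 were tested, and 7 rose and 7 fell between TDE-treated and CTR BMDCs, or 28%, with a median log2 fold change of 0.18. Without CTR replicate 1, 19 of the 50 (38%) were called, against 34.4% of all genes tested in that fit, and without TDE replicate 3, 9 (18%), against 7.15%. The background over all tested genes was 16.9% called (7.57% higher and 9.34% lower) and a median of -0.05. Slamf9, a surface receptor of the SLAM family, ends 3213 bases from Igsf9 on the same strand. It measured 68.7, 28.4 and 25.2 CPM in CTR, 26.8, 25.6 and 27.6 CPM in NE-treated and 166, 156 and 165 CPM in TDE-treated libraries, and rose with a log2 fold change of 2.0 ± 0.354 (edgeR adjusted p = 0.00756). CTR replicate 1 was the high control library, and without it the value was 2.59. On the other side of Igsf9, Tagln2 lies 1169 bases away and had a log2 fold change of -0.14 (edgeR adjusted p = 0.72), while Slamf8 fell from 16.9 to 3.93 CPM and Vsig8 from 6.92 to 0.524 CPM. The log2 fold change of Vsig8 was -3.70, and -2.91 without CTR replicate 1. Neighbours of Igsf9 thus moved in both directions.

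Around Gpr31b, 3 of 8 tested genes rose and 2 fell. Sod2, the mitochondrial superoxide dismutase, rose from 204 to 556 CPM (log2 fold change 1.44 ± 0.197, edgeR adjusted p = 0.00248). Tcp10b rose from 0.926 to 4.53 CPM, a log2 fold change of 2.31, and 2.90 without CTR replicate 1. Unc93a had 0, 2 and 1 reads in CTR and 24.33, 16.57 and 25.6 reads in TDE-treated libraries, a pooled ratio of 23.2 (counting interval 7.62 to 116). Acat2, which makes acetoacetyl-CoA, and the noncoding RNA Airn fell, with log2 fold changes of -0.84 and -1.92. Airn was called in 12 of 16 alternative fits and not when any TDE-treated library was left out, and its value was -1.30 without CTR replicate 1. Around Zfp811, 1 of 9 rose and 1 fell. The gene that rose, Gm26693, starts 213 bases from Zfp811 on the opposite strand (log2 fold change 1.85 ± 0.536, edgeR adjusted p = 0.048), but was called in only 4 of 15 alternative fits. The zinc finger gene Zfp472 fell, with a log2 fold change of -0.85. Around Draxin, 2 of 9 rose, Agtrap by 0.46 on the log2 scale, called in 6 of 16 alternative fits, and the collagen lysyl hydroxylase Plod1 by 0.92, called in 16 of 16. Mad2l2, which overlaps Draxin, was at 7.91 CPM in CTR and 9.82 CPM in TDE-treated BMDCs (edgeR adjusted p = 0.499). Around Slc13a3, 1 of 4 fell, Ocstamp with a log2 fold change of -1.55, called in 2 of 15 alternative fits, and around Tmem119, 1 of 8 fell, the chemerin receptor Cmklr1 from 152 to 80.9 CPM.

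**Figure D3:**
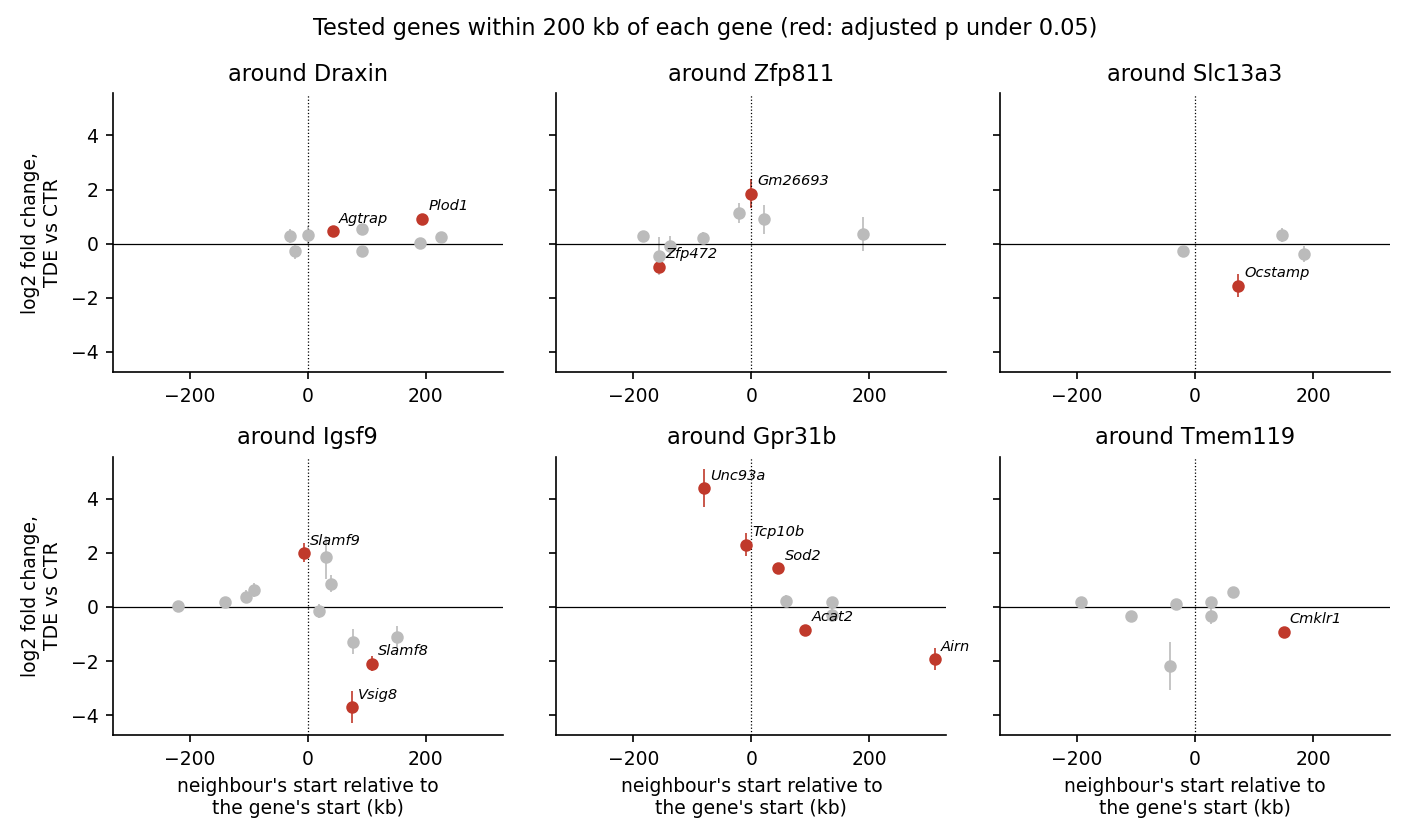
Log2 fold change, TDE-treated against CTR, of the 50 tested genes within 200 kb of each of the 6 genes, against the distance in kb from the gene's start to the neighbour's start, positive in the direction of transcription. Bars are standard errors, red points passed an adjusted p of 0.05, and rising and falling neighbours are seen around Igsf9, Gpr31b and Zfp811.

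Each gene was then set beside the other genes of its pathway. These counts are descriptive, against the background of 16.9% called. Leaving out CTR replicate 1 raised the number of genes called over the whole table from 2541 of 15028 to 5263 of 15301, or 34.4%. The list counts without it are given beside the main ones and stand against this second share. In axon guidance, the pathway of Draxin, 34 of 74 listed genes were tested, and 6 rose and 8 fell (41.2%, median log2 fold change -0.45), and 26 of 37 were called without CTR replicate 1. The receptor Dcc was at 0 in every library. Neo1, Unc5b and the ligand Ntn1 did not pass the filter, with CTR and TDE-treated means of 0.506 and 0.231, 0.268 and 0.232, and 0.155 and 0.0551 CPM. Among those that rose were the ephrin receptor Epha4 (2.77 to 10.6 CPM), the netrin-like Ntng2 (41.8 to 136 CPM) and the semaphorin receptor Plxnb3 (4.16 to 12.3 CPM), and among those that fell were the ephrin Efnb2 (8.2 to 2.27 CPM), the repellent Slit1 (2.09 to 0.758 CPM) and Plxna4 (1.58 to 0.58 CPM). Over 16 alternative fits Epha4 was called in 10, Efnb2 in 9 and Slit1 in 12, and Plxna4 in 4 of 15. The pathway did not move in a single direction.

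Of the immunoglobulin-superfamily adhesion genes related to Igsf9, 18 of 48 were tested, and 2 rose and 8 fell (55.6%, median -0.77), with 13 of 18 called without CTR replicate 1. Nectin2 rose from 28.1 to 79.2 CPM and the poliovirus receptor Pvr from 16.1 to 32.9 CPM. Igsf3, Cd101 and Dscaml1 fell, with log2 fold changes of -2.24, -1.89 and -1.71, Igsf3 being called in 13 of 15 alternative fits. Igsf9b, the paralog of Igsf9, was not tested, at 0.0469 CPM in CTR and 0.0359 CPM in TDE-treated BMDCs. The direction of Igsf9 itself was fixed by the choice of genes, so it is not compared with that of its list.

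For Slc13a3, the list held dicarboxylate carriers and enzymes of itaconate, a dicarboxylate that activated macrophages make. Of 36 genes 22 were tested, and 4 rose and 1 fell (22.7%, median 0.06), with 11 of 22 called without CTR replicate 1. Acod1, the enzyme that makes itaconate, rose from 36.0 ± 5.08 CPM in CTR to 185 ± 14.7 CPM in TDE-treated BMDCs (log2 fold change 2.36 ± 0.151, edgeR adjusted p = 8.72e-05), with 32.1 CPM in NE-treated BMDCs. The monocarboxylate carrier Slc16a1 rose from 8.66 to 23.7 CPM and Clybl, an enzyme of itaconate breakdown, from 9.68 to 21.1 CPM. Nat8l, which makes N-acetylaspartate, fell from 23.1 to 7.45 CPM. The other carriers of the family were low: Slc13a5 was at 0 in every library and Slc13a2 was at 1.23 CPM in CTR and 1.57 CPM in TDE-treated BMDCs (edgeR adjusted p = 0.554).

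For Gpr31b, the list held lipoxygenases and receptors of their products. Of 30 genes 24 were tested, and 5 rose and 7 fell (50%, median -0.17), and 16 of 24 were called without CTR replicate 1. The 5 include Gpr31a, whose reads may belong to Gpr31b, so its call may repeat the rise of Gpr31b. Alox15 and Alox12, which can make 12-HETE, the ligand known for GPR31, both fell. Alox15 went from 14.1 ± 4.7 CPM in CTR and 15.9 CPM in NE-treated BMDCs to 2.07 ± 0.246 CPM (log2 fold change -2.77 ± 0.292, edgeR adjusted p = 0.000788). Alox12 went from 3.25 ± 0.87 and 2.97 CPM to 0.915 ± 0.266 CPM (log2 fold change -1.82 ± 0.313, edgeR adjusted p = 0.00664). The higher level of Gpr31b in TDE-treated BMDCs was fixed by the choice of genes, and a link to these enzymes was not tested. The formyl peptide and lipoxin receptor Fpr2 rose from 134 to 569 CPM, Fpr1 from 123 to 262 CPM and the hydroxycarboxylic acid receptor Hcar2 from 9.52 to 33.5 CPM.

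Among microglia markers, the company of Tmem119, 26 of 30 were tested, and 4 rose and 4 fell (30.8%, median -0.48), with 14 of 26 called without CTR replicate 1. Sall1, a defining transcription factor of microglia, was at 0 in every library, and the microglial receptor P2ry12 was at 2.73 CPM in CTR and 3.14 CPM in TDE-treated BMDCs (edgeR adjusted p = 0.648). The fractalkine receptor Cx3cr1 rose by 0.85 on the log2 scale, called in 12 of 16 alternative fits. The lipid receptor Trem2, the complement gene C1qb and the receptor Gpr34 fell, with log2 fold changes of -2.70, -1.95 and -1.20. Trem2 and C1qb varied widely in CTR, at 571 ± 456 and 616 ± 553 CPM, and without CTR replicate 1 their log2 fold changes were -1.82 and -0.91. C1qb was called in 8 and Gpr34 in 14 of 16 alternative fits. Of osteoblast and BMP genes, the other setting in which Tmem119 is known, 17 of 32 were tested, and 2 rose and 2 fell (23.5%, median 0.34), with 9 of 18 called without CTR replicate 1. Id2 and the osteoblast transcription factor Runx2 rose by 0.81 and 0.58 on the log2 scale, Runx2 being called in 8 of 16 alternative fits, and the growth factor Bmp2 and the matrix protein Spp1 fell, with log2 fold changes of -3.11 and -1.93.

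Many zinc finger proteins with a KRAB domain silence their targets through Trim28 and Setdb1, and 24 of 26 genes of this machinery were tested. By edgeR 0 were called at an adjusted p under 0.05, 4 had an unadjusted p under 0.05 and DESeq2 called 2, while edgeR called 6 of 24 without CTR replicate 1 and 2 without CTR replicate 3. Trim28 was at 98.3 CPM in CTR and 82.9 CPM in TDE-treated BMDCs, and Setdb1 at 54.1 and 61.4 CPM. Of 399 genes named Zfp with a number, 331 were tested, and 14 rose and 13 fell (8.16%, median 0.13), with 78 of 333 called without CTR replicate 1 and 47 of 333 without CTR replicate 3, where 25.6% of all genes were called. Zfp473, Zfp292 and Zfp719 rose by 1.95, 1.69 and 1.62 on the log2 scale, and Zfp296, Zfp872 and Zfp579 fell, with log2 fold changes of -1.86, -1.82 and -1.80. Zfp292 was called in 7, Zfp296 in 12 and Zfp579 in 13 of 16 alternative fits. No gene of any of these lists was called by edgeR between NE-treated and CTR BMDCs.

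**Figure D4:**
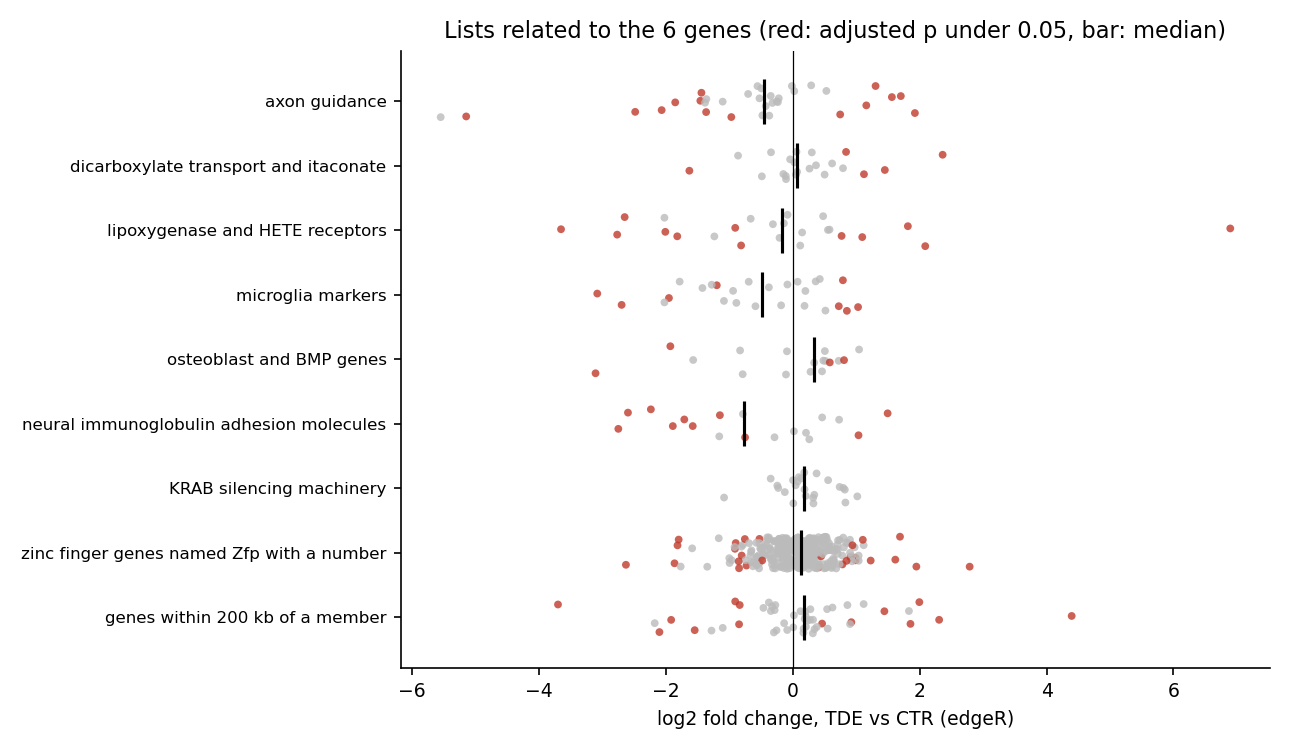
Log2 fold change, TDE-treated against CTR, of every tested gene in the lists around the 6 genes, with red points past an adjusted p of 0.05 and a bar at each list's median. Called genes lie on both sides of 0 in every list but that of the KRAB silencing machinery, where 0 of 24 were called.

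Genes with the most similar profile were found by Pearson correlation of log2 CPM over the 9 libraries among 11422 genes with a mean of at least 1 CPM, as a description. The 9 libraries share the difference between TDE-treated and control groups, and between 236 genes for Tmem119 and 345 for Igsf9 reached a correlation over 0.95. Draxin was most like the formyl peptide receptor family gene Fpr3 (r = 0.9972, from 1.7 CPM in CTR to 36.5 CPM in TDE-treated BMDCs), the actin-binding Synpo (0.9970) and Ptgs2, the inducible cyclooxygenase (0.9970, from 1.45 to 87.5 CPM). Igsf9 was most like Synpo (0.9981), Fpr3 (0.9978) and the stress-response gene Ndrg1 (0.9977). Zfp811 was closest to Zc3h12a, an RNase that degrades inflammatory messenger RNAs (0.9983), the inhibitory receptor Siglece (0.9962) and the checkpoint gene Vsir (0.9961). Slc13a3 was closest to complement factor B, Cfb (0.9980), Anxa6 (0.9971) and Siglece (0.9969). Gpr31b was closest to Vsir (0.9975), the cytokine signal inhibitor Socs3 (0.9974) and Maged1 (0.9965). Tmem119 was closest to C1rl (0.9973), Tctn1 (0.9971) and Gipr (0.9952), and none of these 3 was among the closest genes of another member.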

How the data were processed

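RNA from 9 BMDC libraries was sequenced by the authors on an Illumina NovaSeq instrument. The submitters' processing notes name TopHat2 2.1.1, DESeq2 1.24.0 and R 3.3.1. The counting program, genome build and strand are not given in the sources used here. The authors deposited estimated counts (expected counts) per gene and library, without normalization, with 5964 to 7750 fractional values per library, besides means per group and gene lengths. Estimated counts were rounded to whole numbers, filtered with filterByExpr (15028 of 57238 entries), scaled by TMM and tested with edgeR 4.0.16 in R 4.3.3 (quasi-likelihood F test, 1 mean per group, Benjamini-Hochberg threshold 0.05). Standard errors were the size of a log2 fold change over the root of its F value. CPM divides the rounded estimates by TMM-scaled library sizes. Intervals of pooled ratios are exact 95% intervals for counts. Positions came from GENCODE vM21, in which all 55536 Ensembl identifiers were found. DESeq2 1.42.0, median-ratio factors, library totals, other filters, fits to a pair of groups, a replicate block and omission of each library were the alternatives, and the exon union as gene length was added after the data were seen. Code was tested on simulated counts. Members and lists were chosen with earlier results of these data known. In each list, genes with an adjusted p under 0.05 and a mean of at least 1 CPM were named by size of change, up to 3 up and 3 down, together with preset receptors, ligands, enzymes and relatives of the 6 genes, every called gene within 200 kb and the 3 most similar profiles. Mad2l2, Tagln2 and the named fibroblast markers were named after their values were seen. Some genes that this rule names are not reported here.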

Additional observations from a re-analysis of the deposited data

How the results depend on the processing

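The log2 fold changes of the 6 genes against CTR were positive in every alternative that gave a value, a sign that the choice of genes had fixed. Their size moved furthest when a library was left out: 7.13 to 8.01 for Draxin, 6.56 to 7.14 for Zfp811, 5.97 to 6.66 for Slc13a3, 3.01 to 3.25 for Igsf9, 4.22 to 4.46 for Gpr31b and 1.94 to 2.08 for Tmem119. A minimum of 10 reads in every library left no value for Draxin, Zfp811 and Slc13a3. For NE-treated against CTR BMDCs the value ran from -0.75 to 0.31 for Draxin, positive without CTR replicate 2, and from -0.01 to 0.23 for Gpr31b, negative without CTR replicate 3, neither of them called, and 0 members were called in any setting.

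Counts of called genes depended more on the libraries. Of 2541 genes for TDE-treated against CTR, 1152 were called from the 6 libraries of the pair alone and 1103 to 5263 with 1 library left out. CTR replicate 1 gave the highest count, 3944 were called without CTR replicate 3, and each TDE-treated library left out lowered it to 1177 or less. Of 2095 against NE-treated BMDCs, 6072 were called from the pair alone and 970 to 6223 with 1 library left out. For NE-treated against CTR the 0 calls became 3 with DESeq2 and 0 to 3 with 1 library left out. From the pair alone, axon guidance went from 14 to 9 calls, microglia markers from 8 to 4, neural adhesion genes from 10 to 5 and Zfp genes from 27 to 10. With 1 library left out the calls ran from 8 to 26 in axon guidance, 4 to 11 in the dicarboxylate list, 12 to 16 in the lipoxygenase list, 3 to 14 in microglia markers, 3 to 9 in osteoblast genes, 6 to 13 in neural adhesion genes, 0 to 6 in the KRAB machinery, 9 to 78 in Zfp genes and 9 to 19 within 200 kb. DESeq2 called 2 genes of the KRAB machinery, 15 Zfp genes were called with no filter on low counts, and 9 genes within 200 kb with at least 10 reads in every library. The cause of these differences in counts was not tested.

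The labels do not say whether same-numbered libraries belong together. The correlations of their deviations from the group mean ran from -0.0562 to 0.0723 for TDE-treated and CTR libraries. They ran from -0.0712 to 0.0267 for TDE-treated and NE-treated, and from -0.585 to 0.185 for NE-treated and CTR libraries. With 3 libraries per group and CTR replicate 1 standing apart, these values cannot tell whether same-numbered libraries share a culture or batch. With a replicate block the calls were 1285 against CTR, 1175 against NE-treated BMDCs, 5 in microglia markers and 13 in Zfp genes, and no other count of calls moved by over 1.5 times.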
